A study of Homo sapiens with 8 samples.

Results

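The comparison described here sets 2 RNA-seq libraries of MH7A cells given TNF together with Tubuloside B (Tub B) against 2 libraries of MH7A cells given TNF alone, and follows 16647 expressed genes through it. The libraries were chosen by their labels as the 4 of the 8 libraries of the study that received TNF. MH7A is an immortalised line of fibroblast-like synovial cells from human rheumatoid arthritis, so all libraries come from 1 cell line, with no leukocytes or cartilage beside it. TNF was present for 24 h at 20 ng/mL according to the design text, whereas the TNF libraries are labelled with an amount per microlitre and the unit is incomplete in the label for TNF + Tub B. Tub B, a phenylethanoid glycoside of Cistanche plants, was given at 60 µM at the same time as TNF and for the same 24 h. The other 4 libraries, 2 of mock cells and 2 of cells given 60 µM Tub B without TNF for 24 h, served for the spread between replicates and for the values set beside the comparison. The mock label names DMSO, whereas the design text describes untreated culture, so whether every group held the same vehicle is not known. The series title places the work around phosphorylation of the kinase TAK1 and the question of whether Tub B acts on inflamed synovial cells.

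TNF binds TNFR1 and, through TAK1 and the IKK complex, releases NF-κB from its inhibitors, while the MAP kinases activate AP-1. NF-κB induces chemokines, cytokines, adhesion molecules and its own inhibitors within hours. In synovial fibroblasts TNF also induces a small amount of interferon beta, which over a day switches on antiviral and antigen-presentation genes. NRF2, released from KEAP1 by electrophiles and oxidants, drives a separate set of genes for glutathione, NADPH and quinone reduction.

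The 4 libraries held between 14073186 and 31937334 counts assigned to genes, the TNF libraries being the deeper, and 3 counts corresponded to 0.0992 to 0.208 CPM, the unit of level used below, which is the count scaled to library size. Library sizes were adjusted by the trimmed mean of M-values, and a gene is called when its p from the quasi-likelihood F test of edgeR, adjusted by Benjamini-Hochberg over all genes tested, lies below 0.05. Nothing in the labels says that replicates came from separate cultures, so the p-values measure the spread between these libraries, which may be technical. The line showed its labelled character: VIM, an intermediate filament of mesenchymal cells, stood at 3494 and 3521 CPM with TNF, the fibroblast surface protein THY1 at 904 and 897 and the synovial cadherin CDH11 at 509 and 502, whereas PRG4 and CLIC5, markers of the synovial lining, were too low to test. Of the markers of other cells, 4 of 13 for macrophages, 2 of 10 for T and NK cells, 1 of 7 for B cells, 3 of 9 for endothelium and 3 of 8 for epithelium passed the filter on low counts, and of these only TEK and KRT19 were called, both lower (TEK not without TNF replicate 2 or TNF + Tub B replicate 1). The summed macrophage level was 3.73 to 3.77 CPM with TNF and 4.10 to 4.16 with Tub B added, that of T and NK cells 1.33 to 1.65 and 1.21 to 1.59, that of B cells 2.45 to 2.50 and 2.56 to 2.83, and that of endothelium 9.06 to 10.4 and 6.53 to 7.69. The epithelial sum, nearly all KRT19, was 75.3 to 76.3 CPM with TNF and 58.5 to 59.4 with Tub B added. The T cell gene CD3G and the epithelial gene ESRP1 were at 0 in all 4 libraries. In bulk RNA, fewer cells of a kind and less RNA per cell cannot be told apart.

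Tub B lowered more genes than it raised, and lowered them further. Of the 16647 genes tested, 3367 were called (20.2%), 2183 of them lower with Tub B (13.1%) and 1184 higher (7.11%). At a change of at least 2-fold the split was 378 lower and 62 higher, and at 4-fold 84 lower and 9 higher. Of the 84, 15 had a mean below 1 CPM with TNF. Of the 62, 12 had a mean below 1 CPM with Tub B added. A further 8254 genes (49.6%) were not called and had a 95% interval within 1.5-fold in either direction, and these are described below as held. The remaining 5026 were neither called nor bounded so tightly and are called undetermined. The 10 largest falls by the naming rule were TNFSF10, BST2, IFI44L, OAS1, CXCL11, CXCL10, MX1, CMPK2, USP18 and MX2. Known interferon-stimulated genes such as MX1 and OAS1 are among them, and TNFSF10 encodes the death ligand TRAIL. The 10 largest rises were SLC7A11, AKR1C1, CYP1B1, KYNU, NQO1, TRIM16L, LCE3D, HMOX1, TNFRSF10D and TXNRD1, 5 of which belong to the redox lists below. The count of calls depends on scaling, and the split with library totals was 3431 higher and 1325 lower, a scaling in which the median of all genes stood at 0.115 in place of -0.00481 on the log2 scale. With upper-quartile scaling it was 1733 higher and 1781 lower.

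**Figure D1:**
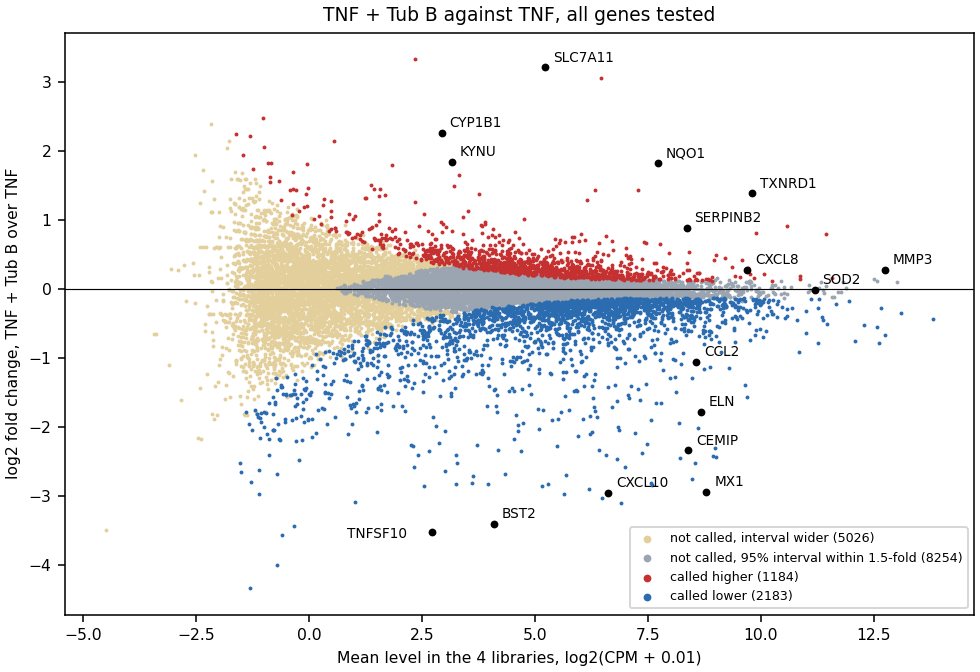
Log2 fold change of TNF + Tub B over TNF for each of the 16647 genes tested (vertical axis) against the mean level in the 4 libraries as log2(CPM + 0.01) (horizontal axis), coloured by call. Genes of the interferon response such as MX1 (-2.94 ± 0.21) lie far below 0, NQO1 (1.83 ± 0.06) and SLC7A11 (3.22 ± 0.12) far above, and SOD2 (-0.01 ± 0.04) on the line.

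Genes that TNF had raised were lowered by Tub B far more often than other genes. The median fall was larger in the classes that TNF had raised more, although this order was not tested and single genes such as SOD2 and CXCL8 departed from it. So that the choice of these genes shared no TNF library with the Tub B contrast, genes were first chosen as called and at least 2-fold higher in TNF replicate 1 than in mock, and Tub B was compared with TNF replicate 2. Then the TNF libraries were exchanged. This left 1 TNF library on each side, which was assumed to vary like the other libraries. With groups of 1 library, enough counts in 1 library alone let a gene pass the filter, and 17443 genes passed. Some may have passed only through a TNF library, including the one then compared with Tub B. Both arrangements also used the same mock and TNF + Tub B libraries, so they are not independent of each other. In the first arrangement 644 genes were TNF-raised (3.69%), and 353 of them (54.8%) were lower with Tub B, against 8.9% of all genes, while 13 (2.02%) were higher, against 3.46% of all genes. In the second arrangement 669 genes were TNF-raised (3.84%), and 371 (55.5%) were lower, against 8.68%, while 15 (2.24%) were higher, against 3.48%. Held genes numbered 58 and 66, and 220 and 217 were undetermined.

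Among genes that TNF raised 2 to 4-fold, 52.5% and 51.7% were lower in the first and second arrangement, with medians of -0.59 and -0.53 on the log2 scale. Among those raised 4 to 16-fold the shares were 55.1% and 56.8%, with medians of -1.18 in both, and among those raised 16-fold or more they were 66.7% of 63 genes and 71.0% of 69 genes, with medians of -2.26 and -2.09. A fall of at least 2-fold was seen for 22.8% and 13.1% of the first class, 45.8% of the second in both arrangements, and 58.7% and 65.2% of the third. Genes that TNF had lowered at least 2-fold numbered 220 and 180. Of these 13.6% and 15.0% were lower and 4.55% and 3.89% higher with Tub B, the latter close to the 3.46% and 3.48% of all genes. Genes not called for TNF were lower in 3.76% and 3.70% of cases. With 1 of the TNF + Tub B libraries left out, the lower share of TNF-raised genes was between 44.0% and 50.5%.

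**Figure D2:**
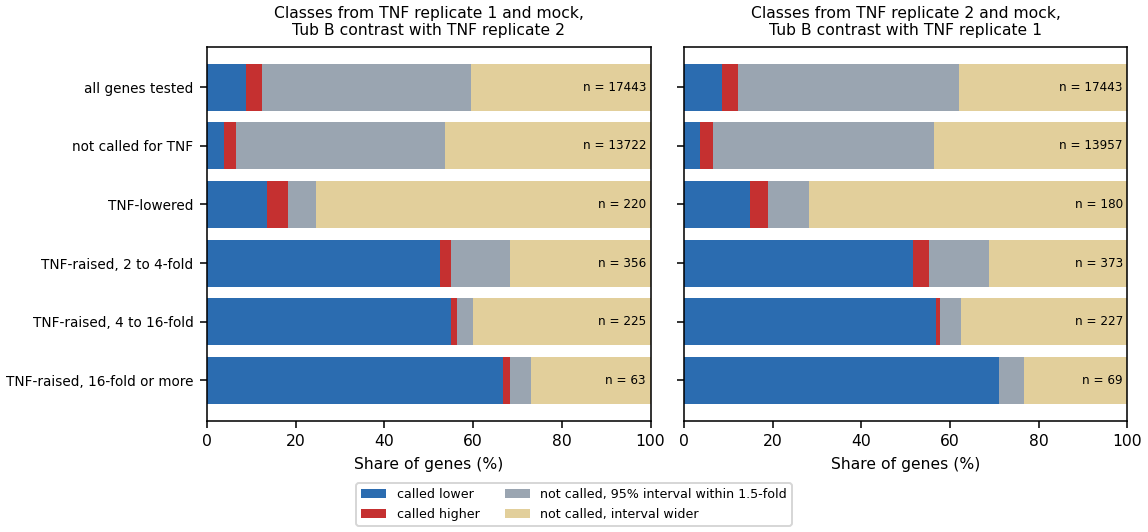
Share of genes in percent (horizontal axis) that were called lower, called higher, held or undetermined with Tub B, for classes set by the response to TNF (vertical axis), with the number of genes in each bar. In both panels the blue share, called lower, is largest in the class raised 16-fold or more, which holds 63 genes on the left and 69 on the right.

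The genes were then read in 50 lists of named programmes, with 747 distinct genes. Of these 668 were tested, 78 fell below the filter on low counts and TNFSF11 was not found in the table. Counts for each list are set against the 13.1% of all genes that were lower and the 7.11% that were higher.

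The promoters of a few genes of these lists are shown first, as examples. CXCL10, BST2 and IFIT1 are lowered interferon-linked genes. CXCL8 and CXCL5 are the 2 neutrophil chemokines that were higher, and GCLM is a raised redox gene, though not among the largest rises. The sequences are the 250 bases before the RefSeq start on GRCh38.p14, on the strand of the gene, with every match to the searched letters in capitals. They were chosen after their values and matches had been seen, and a match is a description of the letters, not a bound site. The letters searched on both strands were GAAA, NN and GAAA in a row for the interferon-stimulated response element, GGANTTTCC for the κB element, TGANTCA for the AP-1 element, TGACNNNGC for the antioxidant response element and GCGTG for the xenobiotic response element. Over all 35116 RefSeq windows from 250 bases before to 50 bases after a start, these were present in 3.57%, 1.64%, 7.71%, 13.3% and 36.5%.
CXCL10 (chr4:76023498-76023747, minus strand): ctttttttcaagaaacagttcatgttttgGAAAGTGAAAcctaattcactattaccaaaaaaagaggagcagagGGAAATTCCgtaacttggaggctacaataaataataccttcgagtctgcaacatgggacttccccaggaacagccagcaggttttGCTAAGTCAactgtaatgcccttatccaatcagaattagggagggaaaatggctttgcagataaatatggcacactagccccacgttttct
BST2 (chr19:17405631-17405880, minus strand): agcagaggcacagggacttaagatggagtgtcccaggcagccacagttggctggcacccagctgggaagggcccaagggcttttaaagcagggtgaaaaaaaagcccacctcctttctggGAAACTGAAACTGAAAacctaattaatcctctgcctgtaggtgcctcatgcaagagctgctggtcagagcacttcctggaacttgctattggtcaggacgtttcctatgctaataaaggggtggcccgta
IFIT1 (chr10:89392373-89392622, plus strand): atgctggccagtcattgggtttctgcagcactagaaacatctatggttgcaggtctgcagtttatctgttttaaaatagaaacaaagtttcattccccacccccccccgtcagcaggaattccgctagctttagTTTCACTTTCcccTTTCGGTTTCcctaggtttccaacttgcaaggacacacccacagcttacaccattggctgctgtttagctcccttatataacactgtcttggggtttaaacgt
CXCL8 (chr4:73740319-73740568, plus strand): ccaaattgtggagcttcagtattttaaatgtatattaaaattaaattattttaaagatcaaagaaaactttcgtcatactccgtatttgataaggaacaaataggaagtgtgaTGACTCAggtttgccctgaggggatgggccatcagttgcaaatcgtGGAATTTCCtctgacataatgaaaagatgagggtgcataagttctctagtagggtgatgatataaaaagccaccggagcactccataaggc
CXCL5 (chr4:73998678-73998927, minus strand): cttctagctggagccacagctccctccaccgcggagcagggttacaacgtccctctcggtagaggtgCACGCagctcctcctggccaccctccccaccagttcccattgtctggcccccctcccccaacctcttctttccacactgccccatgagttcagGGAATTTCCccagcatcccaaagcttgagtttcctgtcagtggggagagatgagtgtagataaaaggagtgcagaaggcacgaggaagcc
GCLM (chr1:93909431-93909680, minus strand): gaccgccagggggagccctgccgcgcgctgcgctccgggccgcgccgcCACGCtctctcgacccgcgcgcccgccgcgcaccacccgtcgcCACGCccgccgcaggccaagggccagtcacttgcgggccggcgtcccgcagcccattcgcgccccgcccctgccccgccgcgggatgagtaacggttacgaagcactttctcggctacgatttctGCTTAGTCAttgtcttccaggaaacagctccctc
In CXCL10 the capitals mark an interferon element beginning 221 bases before the start, a κB element at 176 and an antioxidant response element at 91, and in BST2 a pair of overlapping interferon elements at 130 and 124. IFIT1 holds interferon elements at 116 and 103 bases before the start. CXCL8 holds an AP-1 element at 137 and a κB element at 91, and CXCL5 a xenobiotic response element at 183 and a κB element at 90. GCLM holds xenobiotic response elements at 202 and 159 and an antioxidant response element at 34. CXCL10, which fell, shares the κB letters with CXCL8 and the antioxidant letters with GCLM. All 6 neutrophil CXC chemokines, of which 2 were lower, 2 higher and 2 held, had a κB match in the 300-base window. Of the 11604 tested genes with a window, 2.35% had such a match. Of the 60 redox genes with a window, of 72 in all, 16 (26.7%) had an antioxidant response element match. For the 11604 tested genes with a window, of 16647, that share was 19.1%, above the 13.3% of all RefSeq windows. The difference from the redox genes was not tested, and fewer than 80% of the tested genes had a window. Shares for the antiviral lists are not compared. Only 41 of 52 of these genes had a window under their symbol or a unique older symbol, below the 80% set for such a check.

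Among chemokines, the CXCR3 ligands CXCL10 and CXCL11, which draw T cells, had the lowest log2 fold changes, CCL2, which draws monocytes, fell by less, and the CXCR2 ligands, which draw neutrophils, went both ways. The receptor groups were not tested against each other. The CXCR3 ligands spanned -2.97 to -1.82, below every member of the other chemokine lists. The CC, CX3C and other list (-1.45 to 0.03) overlapped the neutrophil list (-0.94 to 0.28). Across the 18 chemokines tested, 10 were lower and 2 higher. CXCL10 was at 160.1 and 190.4 CPM with TNF and 18 and 27.5 with Tub B added, against 0.107 and 0.0564 in mock cells. The fall was therefore deep but incomplete, with a log2 fold change of -2.96 ± 0.12, adjusted p = 1.86e-11. CXCL11 went the same way, from 75.9 and 103 to 9.94 and 12.9 CPM (-2.97 ± 0.14, adjusted p = 8.07e-11). The last of the list, CXCL9, stayed below 1 CPM and was not called (-1.82 ± 0.63, adjusted p = 0.0524).

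CCL2, the main monocyte attractant, was at 502 and 524 CPM with TNF and 235 and 261 with Tub B added (-1.05 ± 0.05, adjusted p = 3.13e-10), both far above the 20.9 and 23.6 CPM of mock cells. CCL5, a T cell and monocyte attractant also linked to interferon, went from 39.1 and 45.5 to 13.6 and 19 CPM (-1.38 ± 0.12, adjusted p = 1.53e-07). In the list of CC, CX3C and other chemokines 6 of 9 were lower (66.7%; 4 without TNF replicate 2 or TNF + Tub B replicate 1) and none higher, with a median of -0.94. CXCL12, the stromal ligand of CXCR4, is in the same list but was not a TNF-raised gene, with 91.4 and 96.2 CPM in mock, 97.6 and 96.6 with TNF and 53.7 and 54.7 with Tub B added (-0.84 ± 0.05, adjusted p = 3.34e-09). In Tub B libraries without TNF it was at 64 and 59.3.

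CXCL8, interleukin 8, did not fall. It stood at 17.2 and 13.9 CPM in mock, 758 and 739 with TNF and 986 and 835 with Tub B added, and both combined libraries lay above both TNF libraries (0.28 ± 0.07, adjusted p = 0.00449). CXCL5 behaved likewise, from 64.7 and 60.3 to 81.6 and 68.5 CPM (0.26 ± 0.08, adjusted p = 0.0194). Neither rise was called with DESeq2 or without TNF + Tub B replicate 1, and that of CXCL5 was also lost without TNF replicate 2. CXCL2 and CXCL3 were held, at -0.15 ± 0.13 and -0.25 ± 0.10, while CXCL1 (-0.65 ± 0.08, adjusted p = 9.13e-06) and CXCL6 (-0.94 ± 0.09, adjusted p = 7.90e-07) fell. The list of neutrophil chemokines thus gave 2 lower, 2 higher and 2 held of 6.

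Among interleukins and growth factors 10 of 19 were lower (52.6%), none higher, 3 held and 6 undetermined, with a median of -0.47. CSF1, the survival factor of macrophages and osteoclast precursors, was at 491 and 522 CPM with TNF and 200.4 and 217 with Tub B added (-1.28 ± 0.06, adjusted p = 8.07e-11). The mock level was 108 and 123, so the combined libraries lay between mock and TNF. IL6, the main fever and acute-phase cytokine of the synovium, went from 28.1 and 32.8 to 13.4 and 14.8 CPM (-1.11 ± 0.10, adjusted p = 3.31e-07), and CSF2, the granulocyte-macrophage factor, from 16.5 and 15.4 to 8.27 and 7.69 (95% interval -1.239 to -0.757, adjusted p = 4.01e-06). IL1B, the inflammasome cytokine, fell less, from 124 and 121 to 93.8 and 86.1 CPM (-0.45 ± 0.06, adjusted p = 4.99e-05). LIF, a relative of IL6, was at 5.26 and 5.92 CPM in mock, 53.5 and 56.9 with TNF and 50.5 and 48.6 with Tub B added and was held (-0.15 ± 0.07), as were IL11 (0.01 ± 0.08) and IL33 (0.12 ± 0.12).

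In the TNF superfamily 6 of 15 were lower (40.0%) and 1 higher, TNFSF14 at low counts, a call lost without any 1 of the 4 libraries. TNFSF10 (TRAIL) fell from 10.3 and 14.1 to 0.983 and 1.11 CPM (-3.52 ± 0.24, adjusted p = 5.52e-09) and TNFSF13B, the B cell survival factor BAFF, from 11.5 and 16.2 to 1.62 and 2.84 (-2.64 ± 0.22, adjusted p = 9.03e-08). TNFRSF11B, the decoy receptor osteoprotegerin, fell from 596 and 596 to 349.7 and 369 CPM (-0.73 ± 0.06, adjusted p = 3.51e-08), below its mock level of 426 and 489. The signalling receptors of TNF itself were not called, with TNFRSF1A held at -0.12 ± 0.05 and TNFRSF1B undetermined at -0.33 ± 0.15. TNFRSF10D, a TRAIL decoy receptor outside this list, showed the opposite order: 145 and 122 CPM in mock, 47.6 and 38.7 with TNF and 118 and 118 with Tub B added (1.44 ± 0.08, adjusted p = 8.61e-10), and 168 and 162 with Tub B alone. TNF itself was too low to test, with 14 and 2 counts in the TNF libraries and 0 in both combined libraries.

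The list of NF-κB subunits and feedback inhibitors also holds other TNF-raised genes such as SOD2, TRAF1 and IER3, and all 26 members were higher with TNF than in mock. With Tub B added 17 were lower (65.4%), 1 higher (IER3, below) and 7 held, but the falls were shallow, with a median of -0.28. The deepest was TRAF1, an adaptor at TNF receptors, from 25.8 and 24.8 to 9.31 and 9.22 CPM (-1.45 ± 0.12, adjusted p = 5.46e-08). TNFAIP3, which encodes the ubiquitin-editing brake A20, went from 536 and 546 to 315 and 311 CPM (-0.79 ± 0.04, adjusted p = 6.05e-10) and BIRC3, the survival ubiquitin ligase cIAP2, from 262 and 268 to 141 and 138 (-0.92 ± 0.06, adjusted p = 2.72e-09). The mock levels were 25.4 and 27.7 CPM for TNFAIP3 and 2.17 and 3.27 for BIRC3, so both stayed well above mock in the combined libraries. NFKBIA, the inhibitor IκBα and a direct NF-κB target, fell by less, from 220.4 and 214 to 172 and 178 CPM (-0.32 ± 0.06, adjusted p = 0.000434), and so did the subunits NFKB2 (-0.31 ± 0.04, adjusted p = 6.52e-05) and RELB (-0.30 ± 0.07, adjusted p = 0.00348, not called with library totals). SOD2, the mitochondrial superoxide dismutase and another classical NF-κB target, was at 105 and 110.2 CPM in mock, 2340 and 2339 with TNF and 2306 and 2352 with Tub B added. Its levels overlapped (-0.01 ± 0.04, 95% interval -0.090 to 0.077), although with library totals it was called higher at 0.11.

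Of the 24 TAK1, IKK and MAP kinase components tested, 15 were held at the transcript level, where 49.6% of all genes tested were held. A further 6 were lower (25.0%, against 13.1% of all genes) and none higher, although library totals called 2 higher. MAP3K7, which encodes TAK1, was at 60.2 and 61 CPM with TNF and 62.6 and 56.5 with Tub B added, and the groups overlapped (-0.02 ± 0.06, adjusted p = 0.861). Its partners TAB1 (-0.11 ± 0.07) and TAB3 (0.03 ± 0.06) were held, TAB2 was slightly lower (-0.18 ± 0.05, adjusted p = 0.0146; not called with library totals, with DESeq2 or without TNF replicate 2 or either TNF + Tub B library), and of the IKK complex CHUK (0.08 ± 0.07), IKBKB (0.04 ± 0.06) and IKBKG (-0.05 ± 0.10) were held. Phosphorylation, which the series title is about, is not measured by RNA. IKBKE, the inducible IKK-related kinase, was lower (-0.78 ± 0.08, adjusted p = 5.04e-07), as was RBCK1, a part of the linear ubiquitin ligase (-0.72 ± 0.05, adjusted p = 1.47e-08). Of 18 AP-1 and early response genes 7 were lower (38.9%), 2 higher and 7 held, with JUNB lower (-0.67 ± 0.06, adjusted p = 3.81e-07), JUN held (-0.03 ± 0.04) and FOSL1 held (-0.11 ± 0.05). The 2 higher genes were JUND (0.20 ± 0.05) and DUSP4 (0.32 ± 0.07), and neither was called without TNF + Tub B replicate 1, nor JUND without TNF replicate 1.

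Antiviral genes had the lowest medians of the lists with at least 5 tested members. All listed members passed the filter, and all 12 OAS, IFIT and IFITM genes, all 35 other antiviral effectors and all 5 guanylate-binding proteins were lower, 52 of 52 together, 49 of them at least 2-fold, with a median of -2.04 against -0.00481 for all genes tested. MX1, a dynamin-like GTPase that blocks viral nucleoproteins, stood at 689.6 and 881 CPM with TNF and 72.7 and 134 with Tub B added (-2.94 ± 0.21, adjusted p = 8.65e-09). Mock cells held 14.4 and 28.8 CPM and Tub B cells without TNF 5.18 and 4.1. The combined libraries therefore lay above mock and far below TNF. OAS1, a sensor of double-stranded RNA, went from 139 and 178 to 13.7 and 25.8 CPM (-3.03 ± 0.18, adjusted p = 1.65e-09), and IFIT1, which binds foreign RNA caps, from 542 and 695 to 65.5 and 119 (-2.76 ± 0.19, adjusted p = 8.57e-09). BST2, the tether of budding virions whose promoter is printed above, went from 25.9 and 36.2 to 1.91 and 4.02 CPM (-3.41 ± 0.22, adjusted p = 2.90e-09). ISG15, a ubiquitin-like modifier, went from 453 and 557 to 79.1 and 106 CPM (-2.45 ± 0.13, adjusted p = 5.47e-10), and GBP1, a GTPase of the interferon gamma response, from 173 and 211 to 28.3 and 42 (-2.46 ± 0.13, adjusted p = 5.01e-10).

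In each of these 3 lists the median level was higher in replicate 2 than in replicate 1 of the TNF group, by 0.305 to 0.358 on the log2 scale, and of the TNF + Tub B group, by 0.346 to 0.639. The mock group showed the same sign, at 0.188 to 0.434. In the Tub B group the values were 0.123, -0.029 and 0.19. Whether the replicate number marks a shared culture or day is not stated, and with the number as a block in the fit 12 of 12, 35 of 35 and 5 of 5 members were lower. In the alternatives run, 11 or 12 of the 12 OAS, IFIT and IFITM genes, 35 of 35 other effectors and 5 of 5 guanylate-binding proteins were lower.

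Upstream of these effectors the fall was graded. Of 18 ligand, receptor and signalling genes 11 were lower (61.1%), none higher (2 with library totals) and 5 held. IRF7, which amplifies interferon genes, went from 61.1 and 70.8 CPM with TNF to 15.3 and 20.2 with Tub B added (-1.90 ± 0.11, adjusted p = 8.61e-10). IRF1 (-1.01 ± 0.08, adjusted p = 3.68e-08) and STAT2 (-1.09 ± 0.08, adjusted p = 7.03e-09) fell about 2-fold. The receptor chains IFNAR1 (0.08 ± 0.05) and IFNGR1 (0.05 ± 0.06) and the kinases JAK1 (-0.12 ± 0.05) and TYK2 (-0.10 ± 0.05) were held. IFNB1 was below the filter, with 14 and 5 counts in the TNF libraries and 3 and 2 in the combined libraries, and was not tested. Of 15 nucleic acid and microbial sensors 11 were lower (73.3%), among them DDX58, the RNA sensor RIG-I (-2.24 ± 0.13, adjusted p = 7.32e-10), IFIH1, its relative MDA5 (-2.33 ± 0.16, adjusted p = 7.56e-09), and TLR3 (-2.27 ± 0.22, adjusted p = 4.73e-07). The adaptor MAVS was held (0.08 ± 0.05), though called higher with library totals, and TMEM173, the DNA-sensing adaptor STING, fell from 111 and 114 to 44.9 and 45 CPM (-1.32 ± 0.05, adjusted p = 1.86e-11).

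**Figure D3:**
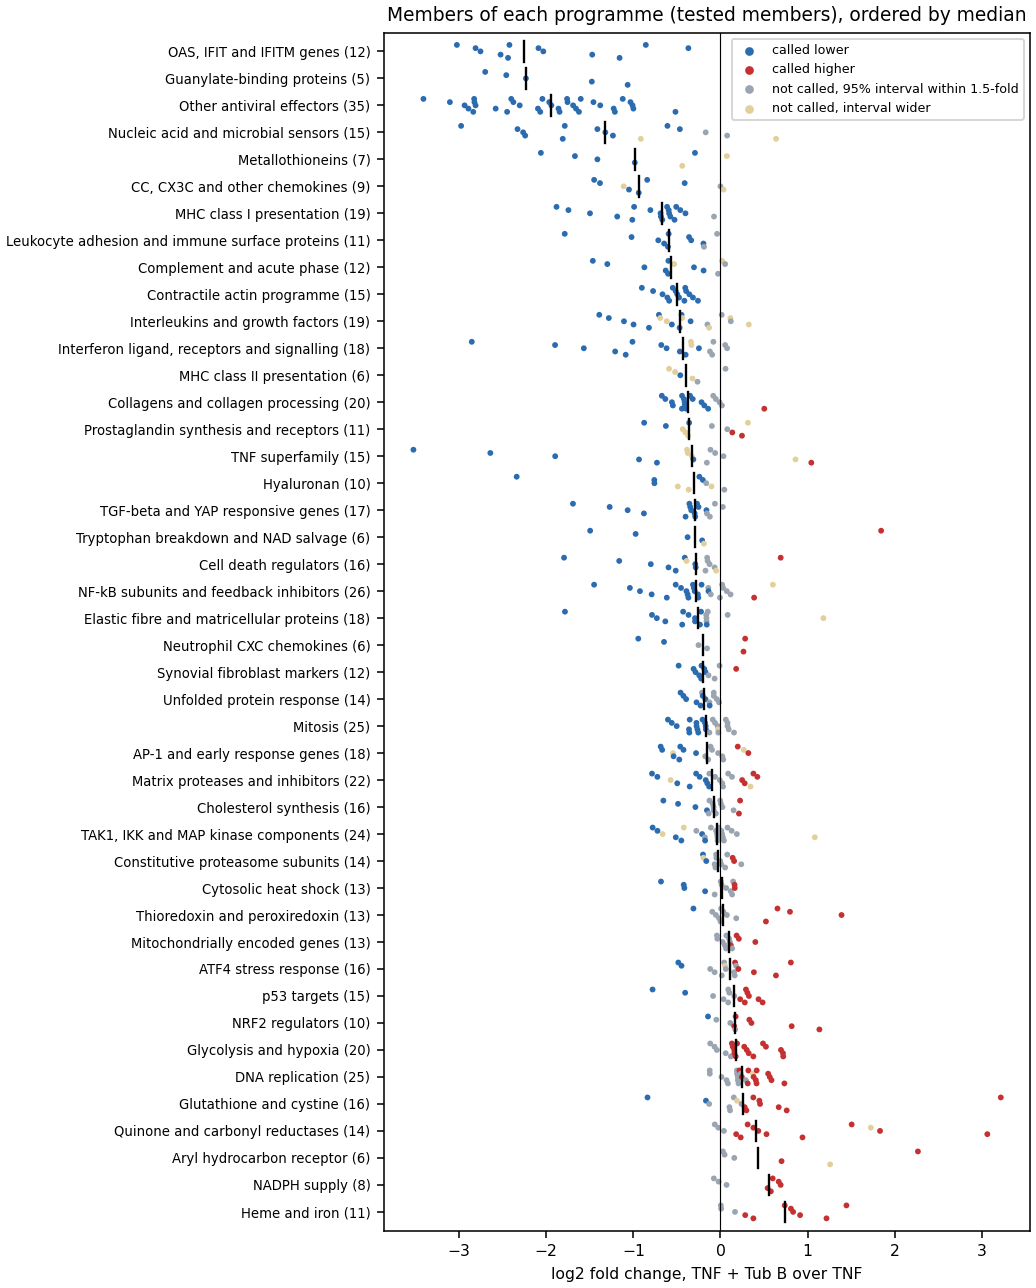
Log2 fold change of TNF + Tub B over TNF (horizontal axis) for the tested members of each programme with at least 5 of them (vertical axis, number in brackets), with a black bar at the median and points coloured by call. The antiviral and guanylate-binding lists sit furthest to the left (medians -2.26 to -1.94) and the heme and iron list furthest to the right (median 0.74).

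Genes of MHC class I presentation fell by smaller amounts, with 18 of 19 members lower (94.7%) and PDIA3 held (-0.07 ± 0.05). TAP1, which pumps peptides into the endoplasmic reticulum, went from 384 and 434 to 131 and 159 CPM (-1.50 ± 0.07, adjusted p = 1.77e-10) and PSMB9, an immunoproteasome subunit, from 63 and 81.7 to 17.5 and 21.7 (-1.88 ± 0.11, adjusted p = 1.58e-09). B2M, the class I light chain, fell least of the called members (-0.40 ± 0.04, adjusted p = 2.97e-06). HLA genes share sequence, so reads may have been divided among them, and HLA-B is given only as an example at -0.69 ± 0.05, adjusted p = 1.56e-08. Of 14 constitutive proteasome subunits 9 were held, 2 lower and 2 higher (none lower and 5 higher with library totals). Without any 1 of the 4 libraries none was higher, and 1 was lower, or none without TNF + Tub B replicate 2. In the class II list 6 of 10 were tested and 1 was lower, the regulator RFX5 (-0.46 ± 0.06, adjusted p = 2.11e-05).

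Leukocyte adhesion and immune surface proteins fell in 9 of 11 cases (81.8%). ICAM1, the ligand of leukocyte integrins, was at 11.4 and 14.9 CPM in mock, 287 and 294 with TNF and 144 and 142 with Tub B added (-1.02 ± 0.06, adjusted p = 1.98e-09). CD274, the checkpoint ligand PD-L1, fell from 29.1 and 26.6 to 7.11 and 9.22 CPM (-1.79 ± 0.13, adjusted p = 1.08e-08), whereas CD83 (-0.19 ± 0.09) and the hyaluronan receptor CD44 (-0.04 ± 0.04) were held. VCAM1 had 7 and 8 counts with TNF and 1 in each combined library, and was not tested. Of 12 complement and acute-phase genes 8 were lower (66.7%), among them C1R (-0.87 ± 0.08, adjusted p = 5.05e-07), C1S (-0.60 ± 0.07, adjusted p = 6.22e-06), both proteases of the classical pathway, and the pentraxin PTX3 (-0.60 ± 0.08, adjusted p = 2.48e-05). C3, the central complement component, fell only slightly (-0.19 ± 0.06, adjusted p = 0.0182), a call lost with library totals and without TNF replicate 1, TNF replicate 2 or TNF + Tub B replicate 1. PTGS2, the inducible cyclooxygenase, went from 66 and 75 to 35 and 41.9 CPM (-0.88 ± 0.09, adjusted p = 1.73e-06), and PTGES, its partner synthase, fell too (-0.63 ± 0.10, adjusted p = 0.000137). The prostaglandin list as a whole gave 3 lower and 2 higher of 11, the higher ones being PTGES3 (0.25 ± 0.05) and the constitutive cyclooxygenase PTGS1 (0.14 ± 0.05). PTGS1 was not called with DESeq2 or without any 1 of the 4 libraries.

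A few TNF-raised genes rose further. SERPINB2, the plasminogen activator inhibitor PAI-2, was at 53.3 and 52 CPM in mock, 236 and 224 with TNF, 450.1 and 406 with Tub B added and 76.9 and 77.1 with Tub B alone (0.89 ± 0.05, adjusted p = 6.82e-10). IER3, an early stress gene, rose from 55.5 and 55.8 to 78.5 and 66.5 CPM (0.39 ± 0.10, adjusted p = 0.0119), a call lost with DESeq2 and without TNF replicate 1, TNF replicate 2 or TNF + Tub B replicate 1. KYNU, kynureninase of tryptophan breakdown, was at 0.604 and 0.226 CPM in mock, 3.54 and 4.36 with TNF, 14.2 and 13.7 with Tub B added and 1.63 and 1.37 with Tub B alone (1.84 ± 0.16, adjusted p = 1.19e-07). IDO1, which starts the same pathway, went the other way, from 7.93 and 9.1 to 3.12 and 2.84 CPM (-1.50 ± 0.22, adjusted p = 6.02e-05), as did WARS, a tryptophan tRNA ligase induced by interferon gamma (-0.97 ± 0.06, adjusted p = 2.90e-09). AKR1B1, an aldose reductase raised by TNF from 265 and 272 to 1462 and 1425 CPM, was held at 1500 and 1465 (0.04 ± 0.04), with a small rise called under library totals.

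**Figure D4:**
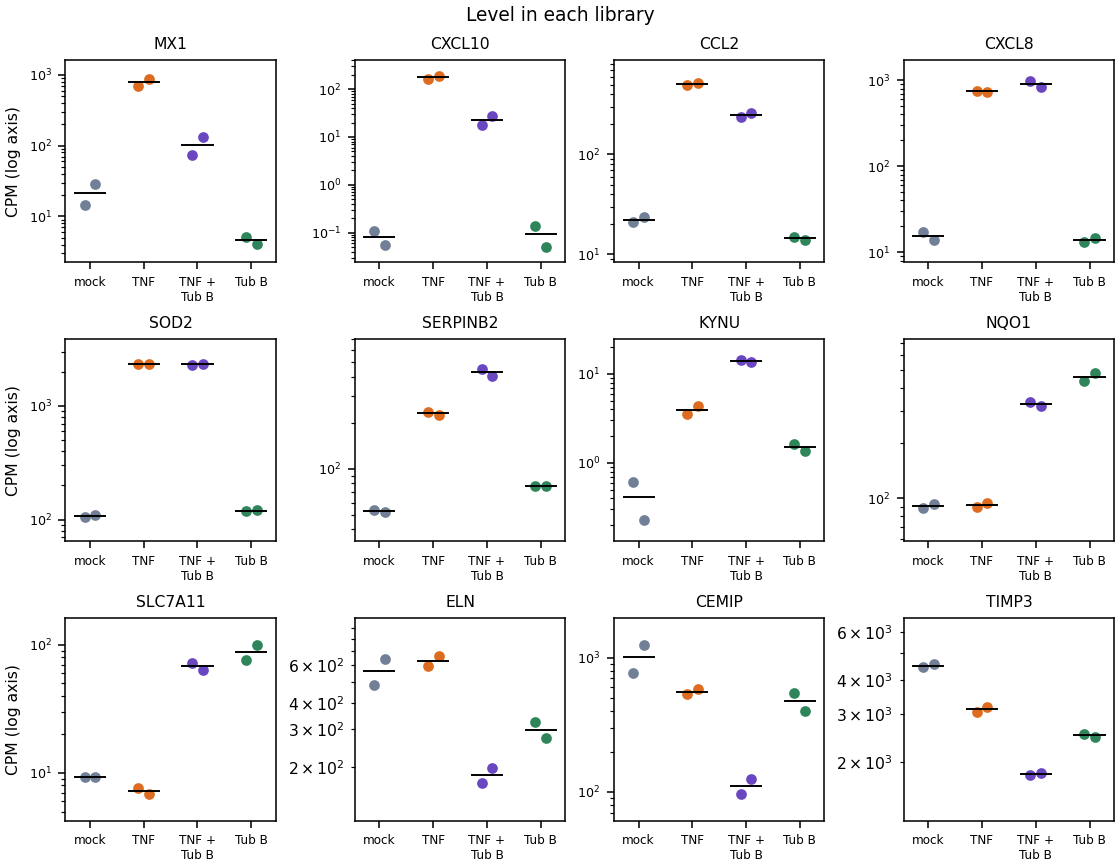
Level of 12 genes in each of the 8 libraries in CPM on logarithmic axes (vertical), by group (horizontal), with points for libraries and bars for the mean of 2. MX1, CXCL10 and CCL2 are lower in both TNF + Tub B libraries than in both TNF libraries, SOD2 overlaps, and SERPINB2, KYNU, NQO1 and SLC7A11 are higher.

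Genes of the redox lists rose: of the 72 tested in 6 lists, 41 were higher (56.9%), 4 lower and 27 not called, with a median of 0.29. SLC7A11, the cystine importer that feeds glutathione synthesis, was at 7.67 and 6.81 CPM with TNF and 72 and 64 with Tub B added (3.22 ± 0.12, adjusted p = 1.86e-11). Its level was 76.7 and 101 with Tub B alone and 9.35 and 9.3 in mock, so it was high in all 4 libraries that received Tub B and low in the other 4. NQO1, a quinone reductase, showed the same order, with 89.7 and 94.9 CPM with TNF, 336 and 319.7 with Tub B added, 437 and 483 with Tub B alone and 88.9 and 93.4 in mock (1.83 ± 0.06, adjusted p = 1.04e-12). TXNRD1, thioredoxin reductase, went from 488 and 497 to 1368 and 1212 CPM (1.39 ± 0.05, adjusted p = 1.86e-11) and HMOX1, the inducible heme oxygenase, from 81.3 and 87 to 242 and 214 (1.45 ± 0.06, adjusted p = 4.00e-11). Whether the change differs between cells with and without TNF was not tested for these genes.

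Within the lists, glutathione and cystine genes were higher in 8 of 16 cases, among them GCLM, the modifier subunit of glutathione synthesis (0.67 ± 0.05, adjusted p = 3.69e-08), and GSR, glutathione reductase (0.76 ± 0.07, adjusted p = 2.70e-07). The lower ones were the peroxidases GPX1 (-0.84 ± 0.05, adjusted p = 1.76e-09) and GPX4 (-0.17 ± 0.05, adjusted p = 0.0178), the latter not called with library totals, with DESeq2 or without TNF replicate 1 or TNF + Tub B replicate 1. Quinone and carbonyl reductases were higher in 10 of 14 cases (6 of 14 without TNF replicate 1, TNF + Tub B replicate 1 or TNF + Tub B replicate 2). AKR1C1 rose from 20.7 and 16.7 to 179.5 and 137 CPM (3.06 ± 0.16, adjusted p = 3.30e-10), with the reservation that AKR1C genes are near-identical copies. In the NADPH list 5 of 8 were higher, among them TALDO1 (0.69 ± 0.05), PGD (0.67 ± 0.05) and TKT (0.54 ± 0.04) of the pentose phosphate pathway and ME1, malic enzyme (0.58 ± 0.07). Heme and iron genes were higher in 8 of 11 cases, including the ferritin chains FTL (0.91 ± 0.05, adjusted p = 5.01e-10) and FTH1 (0.81 ± 0.06, adjusted p = 6.42e-09). In the thioredoxin and peroxiredoxin list 4 of 13 were higher (7 with library totals), 8 held and PRDX6 lower (-0.31 ± 0.04).

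Among NRF2 regulators 6 of 10 were higher. SQSTM1, the autophagy receptor p62 that binds KEAP1, was at 262 and 262 CPM in mock, 665 and 704 with TNF and 1213 and 1199 with Tub B added (0.82 ± 0.05, adjusted p = 8.61e-10). NFE2L2, the gene of NRF2 itself, was called by a small amount (0.17 ± 0.06, adjusted p = 0.0406), as was KEAP1 (0.16 ± 0.05, adjusted p = 0.047), and both calls were lost with DESeq2 and without any 1 of the 4 libraries. NFE2L1 was slightly lower (-0.14 ± 0.04), a call lost with library totals and without TNF replicate 2 or either TNF + Tub B library. CYP1B1, a cytochrome P450 known as a target of the aryl hydrocarbon receptor, rose from 2.38 and 2.98 to 11.8 and 13.5 CPM (2.27 ± 0.15, adjusted p = 5.52e-09) and TIPARP, another such target, rose too (0.70 ± 0.05, adjusted p = 5.35e-09). The receptor AHR was held (0.03 ± 0.07), and CYP1A1 stayed at or below 0.277 CPM in the 4 libraries and was not called (1.26 ± 0.81). Metallothioneins, metal-binding proteins that are not part of the redox lists, moved down: 5 of 7 were lower (3 with library totals), MT1E from 97.2 and 89 to 47.2 and 47.2 CPM (-0.98 ± 0.07, adjusted p = 9.16e-09) and MT2A slightly (-0.29 ± 0.06, adjusted p = 0.00309, a call lost with library totals and without TNF + Tub B replicate 2), with the reservation that MT1 genes resemble each other.

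Matrix and contractile genes were mostly lower: 60 of 80 fell (75.0%) and 1 higher, with a median of -0.36. ELN, elastin, was at 487 and 644 CPM in mock, 597 and 665 with TNF, 168 and 198 with Tub B added and 327 and 272 with Tub B alone (-1.79 ± 0.11, adjusted p = 1.65e-09). CEMIP, the hyaluronan-degrading protein KIAA1199, was at 774 and 1234 CPM in mock, 539.8 and 579.5 with TNF, 97.3 and 124 with Tub B added and 547 and 398 with Tub B alone (-2.34 ± 0.17, adjusted p = 1.39e-08). Both genes were lowest in the combined libraries. All 15 contractile actin genes were lower, from CNN1, calponin (-0.90 ± 0.10, adjusted p = 2.73e-06), to TLN1, talin (-0.26 ± 0.04, adjusted p = 0.000157). Tub B without TNF also lowered all 15 against mock, with a median of -0.42 beside -0.50 in the comparison with TNF. TNF alone raised 1 of the 15 against mock and lowered 8. Collagens and their processing enzymes were lower in 15 of 20 cases (75.0%), COL1A1 going from 7006 and 7429 to 4888 and 4994 CPM (-0.55 ± 0.08, adjusted p = 3.30e-05). PLOD2, a collagen lysyl hydroxylase, was the 1 member higher (0.50 ± 0.05, adjusted p = 3.74e-07). Of the TGF-β and YAP responsive genes 13 of 17 were lower (76.5%), led by ANKRD1 (-1.69 ± 0.19, adjusted p = 3.32e-06) and CTGF (-1.27 ± 0.08, adjusted p = 2.05e-09). Of elastic fibre and matricellular genes 12 of 18 were lower (66.7%), and of hyaluronan genes 5 of 10, with 3 of 10 in each run without 1 of the 4 libraries. HAS2, a hyaluronan synthase, went from 131 and 127 to 81.9 and 70.2 CPM (-0.76 ± 0.07, adjusted p = 3.18e-07).

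Matrix proteases and their inhibitors went both ways. Of 22 tested, 9 were lower (40.9%), 4 higher (18.2%) and 7 held, and the split became 4 lower and 9 higher with library totals, and 5 lower without TNF replicate 2 or without TNF + Tub B replicate 1. MMP1, the interstitial collagenase, was at 303 and 224 CPM in mock, 657 and 647 with TNF and 925 and 824 with Tub B added (0.42 ± 0.09, adjusted p = 0.00172), and MMP3, stromelysin, at 3271 and 3364 in mock, 5982 and 6393 with TNF and 7419 and 7584 with Tub B added (0.28 ± 0.04, adjusted p = 8.41e-05). Both were thus higher in the combined libraries than in the TNF libraries. PLAU, the urokinase plasminogen activator, rose as well (0.38 ± 0.05, adjusted p = 4.60e-05). TIMP3, a matrix-bound protease inhibitor, fell from 3065 and 3184 to 1800 and 1823 CPM (-0.79 ± 0.04, adjusted p = 3.01e-10), while TIMP1 was held (0.03 ± 0.04), though called higher with library totals. CTSS, the cysteine protease of antigen processing, fell from 55.8 and 68.6 to 37.1 and 37.7 CPM (-0.72 ± 0.08, adjusted p = 4.91e-06).

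Several counts of the remaining lists depend on scaling or on 1 library. DNA replication genes were higher in 12 of 25 cases, led by the cyclins CCNE2 (0.73 ± 0.14, adjusted p = 0.000813) and CCNE1 (0.59 ± 0.10, adjusted p = 0.000483), and mitotic genes lower in 14 of 25, led by KIF20A (-0.60 ± 0.05, adjusted p = 4.99e-08) and CDC20 (-0.56 ± 0.07, adjusted p = 9.58e-06). The first count was 20 with library totals, 5 without TNF replicate 2 and 4 without TNF + Tub B replicate 1. The second was 6 with library totals, 7 without TNF replicate 1 and 9 without either TNF + Tub B library. Tub B without TNF, set against mock, lowered 9 of the 25 replication genes and raised 0, with a median of -0.23 beside 0.24 in the comparison with TNF. It lowered 18 of the 25 mitotic genes, with a median of -0.38 beside -0.17. Glycolysis and hypoxia genes were higher in 15 of 20 cases (9 without TNF replicate 1 or without TNF + Tub B replicate 1), led by PDK1, a brake on pyruvate oxidation (0.72 ± 0.09, adjusted p = 1.46e-05), and the glucose importer SLC2A1 (0.72 ± 0.07, adjusted p = 2.39e-07). Of p53 targets 7 of 15 were higher (4 without TNF replicate 1), with CDKN1A at 0.31 ± 0.05, adjusted p = 0.000255. The 2 lower ones were GADD45B and PMAIP1, and the lowest log2 fold change of the list was -0.78. Cell death regulators were lower in 8 of 16 cases, with the necroptosis effector MLKL at -1.16 ± 0.09, adjusted p = 2.89e-08 and the caspase inhibitor CFLAR at -0.41 ± 0.04, adjusted p = 1.61e-06, and BCL2 alone was higher, a call lost without any 1 of the 4 libraries.

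Genes of the unfolded protein response, which covers chaperones of the endoplasmic reticulum and their regulators such as XBP1, were lower in 8 of 14 cases (3 with library totals), with HSPA5, the chaperone BiP, at -0.43 ± 0.05, adjusted p = 2.90e-06. Of 16 ATF4 targets 5 were higher and 2 lower (1 lower without TNF replicate 2). None was higher when TNF replicate 1 was left out, 3 when TNF replicate 2 was, and 1 when either TNF + Tub B library was. Cytosolic heat shock genes gave 4 lower and 2 higher of 13 (6 higher with library totals, none higher without TNF replicate 1 or without either TNF + Tub B library). Cholesterol synthesis genes gave 4 lower and 2 higher of 16, with 10 held (2 lower with library totals or without TNF replicate 2, none higher without TNF replicate 1 or either TNF + Tub B library). The 13 mitochondrially encoded genes gave 4 higher and 9 held, and 11 higher with library totals. None was higher when TNF replicate 1 or TNF + Tub B replicate 2 was left out, 1 when TNF replicate 2 was, and 2 when TNF + Tub B replicate 1 was. Their share of counts was 3.10% and 3.12% in the TNF libraries and 3.52% and 3.68% in the combined libraries, and the part of this in any other result was not tested. Synovial fibroblast markers were lower in 8 of 12 cases by small amounts, with a median of -0.20, the largest being CDH11 (-0.48 ± 0.05, adjusted p = 2.21e-06). With library totals 3 were lower, and the number dropped to 5 when TNF replicate 2 was left out and to 4 when TNF + Tub B replicate 1 was. Their summed level was 7726 and 7793 CPM with TNF and 6689 and 6575 with Tub B added.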

How the data were processed

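Poly(A) RNA of MH7A cells was sequenced from unstranded libraries, per the labels' protocols, so reads from a gene and its antisense partner cannot be told apart. The authors deposited 1 table of raw read counts per gene for the 8 libraries. STAR 2.7.0 and featureCounts are named per the submitters' processing notes, which also name the builds hg19 and mm10 without saying what each was used for. Other settings are not given in the sources used here. Library totals are in the report. The 3-count floor covers counting error only, whereas the 95% intervals come from the fit and include the spread between libraries.

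Genes passing edgeR's filterByExpr (16647 of 38173) were scaled by TMM and tested with the quasi-likelihood F test over all 8 libraries, with 1 coefficient per group (R 4.3.3, edgeR 4.0.16, limma 3.58.1). The biological coefficient of variation was 4.00% and the residual degrees of freedom 4. The SE was the log2 fold change divided by the square root of F, and ± is this SE with 2 libraries a group. DESeq2 1.42.0 was run as an alternative to edgeR. The script was tested on simulated data for this comparison over 16647 genes, where 47 of 67 genes changed 1.5-fold, 52 of 67 changed 2-fold, 59 of 66 changed 4-fold and 4 of 16181 unchanged genes were called. The simulated counts took their spread from the fitted trend, without a spread particular to each gene, and far fewer genes changed than were called in the data. These rates may therefore not hold for the data. The comparison of TNF with mock shares its TNF libraries with the comparison reported, so both sets of values are given side by side only.

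The comparison, gene lists and naming rule were chosen with earlier results of these data known. The rule named, per list, the 4 called members with the largest change and the 2 uncalled members of highest level, then the 10 largest changes each way with at least 5 CPM and no overlap, and TNF-raised genes (at least 4-fold and 20 CPM) that fell most, were held or rose most. It passed over pseudogene, antisense and clone-based names. A further 54 genes in the report and the closing section were named after their values were seen. Promoter sequences are from RefSeq. Results for some list members are not reported here.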

Additional observations from a re-analysis of the deposited data

How the results depend on the processing

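Scaling moved the split of calls most. With library totals 3431 genes were higher and 1325 lower, and the median of all genes was 0.115 on the log2 scale. With upper-quartile scaling 1733 were higher and 1781 lower, with a median of 0.0392. DESeq2 called 2256 genes, 649 higher and 1607 lower, and gave no adjusted p for 2905. At an adjusted p below 0.01, 2106 genes were called, 575 of them higher. Without 1 of the 4 libraries 2024 to 2388 genes were called, 544 to 694 higher and 1480 to 1694 lower. When only genes raised at least 4-fold by TNF were taken, 166 of 288 and 178 of 296 were lower. With the replicate block 3656 genes were called, 1320 higher and 2336 lower, and 325 and 351 TNF-raised genes were lower. The deviations of same-numbered libraries correlated at -0.0479 to 0.0473, too low over all genes to treat the numbers as pairs, although replicate 2 was above replicate 1 in 3 groups for the antiviral lists. Leaving out each TNF + Tub B library for the TNF-raised classes was added after seeing the data. Of 327 genes chosen by the naming rule or after their values were seen, 246 had the same call in every alternative, 48 lost a call in some alternative and 31 gained one. SOD2 (0.11) and CTSB (0.11) changed sign with library totals and were called higher. With the window cut to the 250 bases before the start, all 6 neutrophil chemokines still held a κB match. An antioxidant response element match was then held by 23.3% of redox genes and 15.7% of the tested genes with a window. The cause of these shifts was not tested. For the 5026 undetermined genes a change of 1.5-fold could not be bounded.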

Other observations

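Outside the 50 lists lay 46 of the 84 genes that fell at least 4-fold and 51 of the 62 that rose at least 2-fold, and the following were named after their values were seen. Several that fell are known interferon-linked genes. BATF2, a transcription factor of macrophage activation, went from 32.3 and 37.5 to 3.35 and 7.76 CPM (-2.68 ± 0.18, adjusted p = 6.47e-09), ETV7, a repressor of the ETS family, from 14 and 19.4 to 2.25 and 2.36 (-2.83 ± 0.19, adjusted p = 6.50e-09), and the nuclear coactivator HELZ2 from 591 and 669 to 133 and 179 (-2.02 ± 0.10, adjusted p = 1.55e-10). TYMP, thymidine phosphorylase, went from 66.5 and 82.1 to 15.1 and 15.5 CPM (-2.27 ± 0.10, adjusted p = 4.00e-11), and IL4I1, a secreted amino acid oxidase, from 36.7 and 42.9 to 8.21 and 10.9 (-2.06 ± 0.13, adjusted p = 3.59e-09). EDN1, the vasoconstrictor endothelin 1, went from 30 and 30.5 to 6.59 and 5.34 CPM (-2.33 ± 0.14, adjusted p = 1.06e-09), with 3.95 and 6.03 in mock. COL11A1, a fibrillar collagen, was at 14.3 and 24 CPM in mock, 7.01 and 8.99 with TNF and 1.68 and 1.59 with Tub B added (-2.26 ± 0.32, adjusted p = 4.97e-05).

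Among the rises outside the lists were ALAS1, the first enzyme of heme synthesis, from 42.8 and 39.9 to 99 and 105 CPM (1.30 ± 0.06, adjusted p = 8.07e-11), and PIR, the nuclear protein pirin, from 1.85 and 1.7 to 4.74 and 4.5 (1.37 ± 0.20, adjusted p = 6.11e-05). The channel protein PANX2 went from 7.5 and 7.66 to 20.1 and 19.3 CPM (1.38 ± 0.10, adjusted p = 1.30e-08) and the monocarboxylate carrier SLC16A6 from 0.562 and 0.479 to 2.14 and 2.63 (2.15 ± 0.35, adjusted p = 0.000229). FOXQ1, a forkhead transcription factor, went from 3.21 and 2.71 to 7.4 and 7.0 CPM (1.26 ± 0.16, adjusted p = 1.05e-05), against 4.02 and 3.67 in mock and 6.07 and 5.93 with Tub B alone. TRIM16L, which resembles its neighbour TRIM16 so that reads may be shared, went from 5.12 and 4.31 to 14.8 and 15.5 (1.66 ± 0.14, adjusted p = 6.68e-08).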
